A study of Homo sapiens with 16 samples.

Results

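Expression of 7 surface receptors that steer the movement of lymphocytes was described across 16 human T-ALL lines. T-ALL is the acute leukemia that arises from developing T cells. The receptors comprised the chemokine receptor genes CXCR4, CCR7, CCR9, CXCR3, CCR4 and CCR8 and the sphingosine 1-phosphate (S1P) receptor gene S1PR1. The 7 genes were taken by their symbol in the annotation of the array, out of 19738 genes measured. They were covered by 10 of the 41042 probe sets that name a single gene, with 3 for CXCR4, 2 for CXCR3 and 1 for each of the other 5 genes.

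The lines were ALL-SIL, CCRF-CEM, DU528, HSB-2, JURKAT, KOPT-K1, LOUCY, MOLT-16, MOLT-4, P12-ICHIKAWA, PEER, PF-382, SKW-3, SUP-T11, SUP-T13 and TALL-1. Each was an established line grown without treatment, in RPMI-1640 medium containing 10% fetal bovine serum and antibiotics, and its total RNA was taken after 24 hours. Every line was hybridised once to an Affymetrix U133 Plus 2.0 array, so all lines formed 1 group with no control and no replicate. Each value is therefore that of 1 culture, no replicate error can be given, and an SD is always a spread between lines.

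Chemokine receptors are G protein-coupled receptors that make cells migrate towards tissues that release their ligands, and T-ALL cells use some of them to enter and remain in the marrow, the thymus, lymph nodes or the central nervous system. Developing T cells exchange these receptors as they mature. CXCR4 and CCR9 accompany the early and cortical thymic stages, CCR7 draws cells to the medulla and to lymph nodes, and S1PR1 lets mature cells leave towards the S1P of the blood.

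Levels are probe set intensities as deposited, not on a log scale, and all values of the table together had a median of 42.3. A gene was called high in a line above 4 times that median, an intensity of 169, and low at or below the median. Spreads, slopes and correlations are on the scale of log2(intensity + 16). Probe sets differ in how strongly they bind, so levels were ordered between lines for each gene and not between genes. The 9 hybridisation control probe sets had an SD between arrays of at most 0.19 on the log2 scale. That figure covers hybridisation and scaling but not culture or RNA preparation, and a step between neighbouring lines below it could not be told from array noise. A step above it is not thereby resolved, since a step carries the noise of both arrays. In the bulk RNA of a culture, a lower level may come from fewer cells that express a gene or from less RNA per cell, and these cannot be told apart.

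Some T-cell markers were present in every line, but not all of them. Of the 8 examined, 5 were high in all 16 lines, beside 32.3% of all genes, while CD2 was low in 5 lines and CD5 in 3. The summed intensity of the 8 ran from 10527 in MOLT-16 to 41135 in KOPT-K1. High in no line were 5 of 6 myeloid markers, 3 of 4 B-cell markers, 3 of 6 natural killer (NK) cell markers and 5 of 6 stromal and endothelial markers, beside 45.0% of all genes. The share for the NK-cell markers was near that of all genes. The array medians ran from 37.5 to 44.8. The 3'/5' ratio of the ACTB control probe sets, a measure of how complete the RNA was, ran from 1.44 in DU528 to 2.03 in MOLT-4.

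The receptor genes were mostly high in some lines and low in others. CXCR4 was high in all 16 lines, a pattern shared by 32.3% of all genes. CCR4 was high in no line, as were 45.0% of all genes. The other 5 receptors were high in some lines only, CCR7 in 9, CXCR3 in 7, S1PR1 in 5, CCR9 in 4 and CCR8 in 2, against 22.8% of all genes. The SD between lines was above 1 for 6 of the 7 receptors, all but CCR4, and for 12.5% of all genes.

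**Figure D1:**
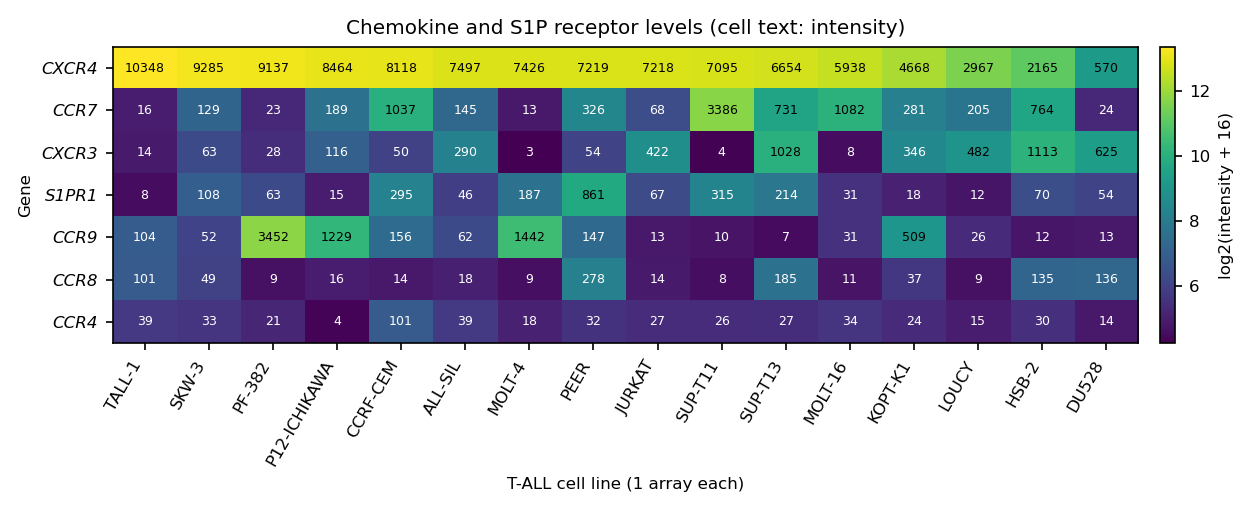
Intensity of the 7 receptor genes (rows) in the 16 T-ALL lines (columns, 1 array each, ordered by CXCR4); colour is log2(intensity + 16) and the text in each cell is the intensity. CXCR4 ran from 10348 in TALL-1 to 570.4 in DU528, while the high values of the other receptors fell in different lines, such as 3386 for CCR7 in SUP-T11 and 3452 for CCR9 in PF-382.

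The promoters of 3 receptors are shown because their genes differed widely in how many lines were called high. The counts ran from all 16 (CXCR4) through 7 (CXCR3, on the brighter of its probe sets) to 0 (CCR4). A line not called high may still express the gene. Each is the run of 250 bases before the gene's start in RefSeq (build GRCh38.p14), written 5' to 3' on the gene's strand, with each CG dinucleotide (CpG, the site of DNA methylation) in capitals. CXCR4 lies on chr2:136118150-136118399, minus strand, CXCR3 on chrX:71618512-71618761, minus strand, and CCR4 on chr3:32951394-32951643, plus strand.
CXCR4: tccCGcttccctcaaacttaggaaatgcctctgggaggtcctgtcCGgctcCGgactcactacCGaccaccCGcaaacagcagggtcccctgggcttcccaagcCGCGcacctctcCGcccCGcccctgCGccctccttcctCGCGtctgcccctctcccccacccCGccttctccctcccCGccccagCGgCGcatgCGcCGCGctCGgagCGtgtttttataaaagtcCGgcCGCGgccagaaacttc
CXCR3: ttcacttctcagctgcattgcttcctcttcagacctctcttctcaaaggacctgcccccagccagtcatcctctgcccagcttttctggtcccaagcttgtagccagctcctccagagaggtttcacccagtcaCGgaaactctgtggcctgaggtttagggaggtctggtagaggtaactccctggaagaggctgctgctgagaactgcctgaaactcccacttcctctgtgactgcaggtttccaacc
CCR4: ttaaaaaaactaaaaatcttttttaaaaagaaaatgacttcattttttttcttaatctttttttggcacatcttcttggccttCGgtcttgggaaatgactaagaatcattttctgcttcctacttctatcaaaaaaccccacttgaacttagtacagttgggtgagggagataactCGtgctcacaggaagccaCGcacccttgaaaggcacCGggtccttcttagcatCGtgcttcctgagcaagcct
The CXCR4 window held 24 CpG at a G and C content of 68.0%, and 78.9% of 27305 promoters of the same length held as few or fewer. The CXCR3 window held 1 CpG at 54.8% G and C, a number that 15.3% of promoters did not exceed. The CCR4 window held 5 CpG at 39.6% G and C, a number that 38.7% of promoters did not exceed. CG reads the same on both strands, and the median promoter held 10. Of the 7 genes, 5 were found in the promoter table. The windows listed for CCR9 and S1PR1 lie inside their gene records and are not printed, and CCR7 and CCR8 had no entry. Methylation was not measured in these lines, and the counts describe the sequence alone.

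CXCR4, the receptor for CXCL12 that holds immature blood cells in the marrow and early thymocytes in the cortex, was expressed by every line. Its intensity was 10348 in TALL-1, 9285 in SKW-3, 9137 in PF-382, 8464 in P12-ICHIKAWA, 8118 in CCRF-CEM, 7497 in ALL-SIL, 7426 in MOLT-4 and 7219 in PEER. It was 7218 in JURKAT, 7095 in SUP-T11, 6654 in SUP-T13, 5938 in MOLT-16, 4668 in KOPT-K1, 2967 in LOUCY, 2165 in HSB-2 and 570.4 in DU528. The first 12 lines thus lay within 5938 and 10348, and KOPT-K1, LOUCY, HSB-2 and DU528 formed a lower tail. The highest line exceeded the lowest 18.1-fold, and the step of 1.90 log2 units from HSB-2 down to DU528 took up 45.7% of the whole range. Of the 15 steps between neighbouring lines, 11 were smaller than the largest SD of the hybridisation controls, so most of the order near the top was not resolved. The other 2 CXCR4 probe sets gave the same order at the ends, from 6791 in TALL-1 to 244 in DU528 and from 6893 to 245, and correlated with the first at r of 0.996 and 0.995 over the 16 lines.

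CCR9, the receptor for the thymic and gut chemokine CCL25, had the widest spread of the 7 genes, with an SD of 2.33 log2 units that exceeded that of 98.9% of all genes. Its intensity was 3452 in PF-382, 1442 in MOLT-4, 1229 in P12-ICHIKAWA and 509 in KOPT-K1, the only 4 lines in which it was high. CCRF-CEM at 156, PEER at 147, TALL-1 at 104, ALL-SIL at 61.9 and SKW-3 at 52.0 lay between the limits. The other 7 lines were low, from 30.9 in MOLT-16 and 25.5 in LOUCY through 13.4 in DU528, 13.3 in JURKAT, 11.8 in HSB-2 and 10.4 in SUP-T11 to 6.78 in SUP-T13. All 3 steps among the high lines were larger than the largest SD of the control probe sets. CCRF-CEM and PEER missed the limit narrowly, and with a limit of 2 times the table median CCR9 counted as high in 7 lines.

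CCR7, the receptor for CCL19 and CCL21 that guides T cells into lymph nodes and is used by T-ALL cells to reach the central nervous system, was high in 9 lines. Its intensity was 3386 in SUP-T11, 1082 in MOLT-16, 1037 in CCRF-CEM, 764 in HSB-2, 731 in SUP-T13, 326 in PEER, 281 in KOPT-K1, 205 in LOUCY and 189 in P12-ICHIKAWA. ALL-SIL at 145, SKW-3 at 129 and JURKAT at 68.4 were intermediate, and DU528 at 23.7, PF-382 at 23.3, TALL-1 at 16.1 and MOLT-4 at 13.3 were low. SUP-T11 stood 3.13-fold above the next line, and the levels from there down formed a graded series without a clear division. Of the 8 steps among the high lines, 3 were below the largest control SD, MOLT-16 against CCRF-CEM among them. At a limit of 8 times the table median, 5 lines remained above it.

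CXCR3, the receptor for the interferon-induced chemokines CXCL9, CXCL10 and CXCL11 and a marker of effector T cells and NK cells, was high in 7 lines. Its intensity reached 1113 in the HSB-2 line and 1028 in the SUP-T13 line and was 625 in DU528, 482 in LOUCY, 422 in JURKAT, 346 in KOPT-K1 and 290.15 in ALL-SIL. P12-ICHIKAWA at 116, SKW-3 at 62.7, PEER at 53.8 and CCRF-CEM at 50.4 were intermediate, while PF-382 at 28.0, TALL-1 at 13.9, MOLT-16 at 7.72, SUP-T11 at 3.75 and MOLT-4 at 3.17 were low. Steps of more than the control SD separated most neighbours, with 5 of 15 below it. A second CXCR3 probe set was much flatter, from 137 in HSB-2 through a median of 57.7 to 41.0 in SUP-T11, and was high in no line. The probe sets nevertheless ranked the lines alike, with rho of 0.92 and r of 0.88 over the 16 lines. With the mean of both probe sets the SD of CXCR3 was 1.23, against 2.08 for the brighter one.

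CCR4, the receptor for CCL17 and CCL22 found on type 2 helper and skin-homing T cells, was high in no line. Its highest intensity was 101 in CCRF-CEM, its median 26.9 and its lowest 4.42 in P12-ICHIKAWA. CCRF-CEM stood 2.56-fold above ALL-SIL, the next line at 39.4, and was the only one of the 16 above the table median. GATA3, a transcription factor needed for both T-cell development and type 2 helper cells, was high in all 16 lines, from 4616 in LOUCY to 930 in P12-ICHIKAWA. With CCR4 this low, no relation between the pair was tested.

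CCR8, the receptor for CCL1 found on regulatory and type 2 helper T cells, was high in PEER at 278 and in SUP-T13 at 185. DU528 at 136, HSB-2 at 135, TALL-1 at 101 and SKW-3 at 48.7 lay between the limits. The other 10 lines were low, from 36.7 in KOPT-K1 to 8.30 in SUP-T11. The call was sensitive to the limit, since CCR8 was high in 5 lines at 2 times the table median and in 0 at 8 times.

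S1PR1, the receptor through which thymocytes and lymphocytes sense S1P when they leave an organ, was high in 5 lines. Its intensity was 861 in PEER, 315 in SUP-T11, 295 in CCRF-CEM, 214 in SUP-T13 and 187 in MOLT-4. SKW-3 at 108, HSB-2 at 70.3, JURKAT at 67.1, PF-382 at 63.1, DU528 at 53.8 and ALL-SIL at 46.3 were intermediate. MOLT-16 at 31.0, KOPT-K1 at 18.2, P12-ICHIKAWA at 15.5, LOUCY at 11.7 and TALL-1 at 7.74 were low. PEER stood 2.74-fold above SUP-T11, while 2 of the 4 steps among the high lines were below the largest control SD. At 8 times the table median, S1PR1 was high in PEER alone.

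**Figure D2:**
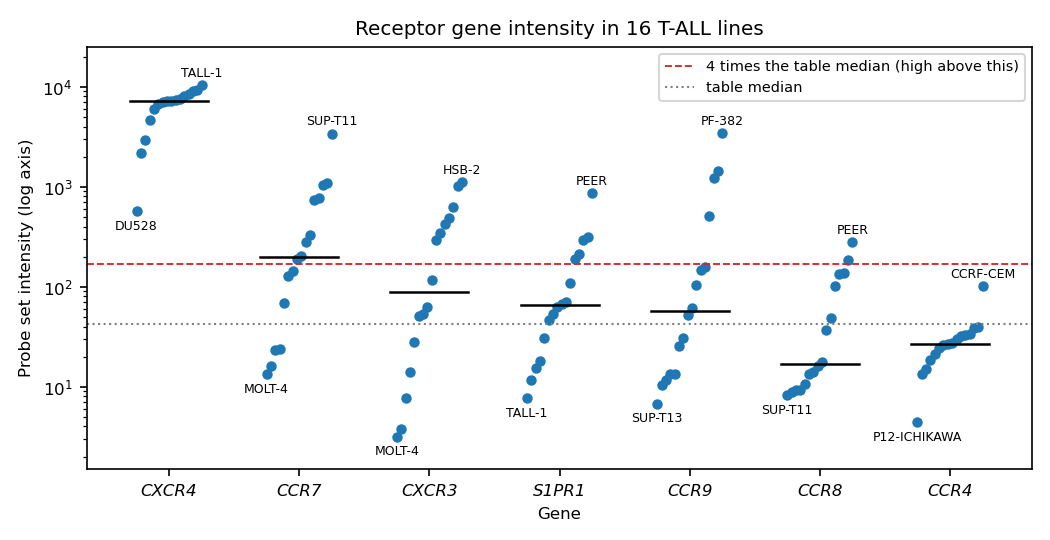
Intensity (log axis) of each receptor gene, with 1 point per T-ALL line, the median over the 16 lines as a bar, the limit for a high call dashed and the table median dotted. CXCR4 lay above the limit in all 16 lines and CCR4 in none, and CCR7, CXCR3, S1PR1, CCR9 and CCR8 were spread across it.

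The lines differed in how many of the receptors they combined. SUP-T13 had 5 high, namely CXCR4, CCR7, CXCR3, CCR8 and S1PR1. KOPT-K1 and PEER had 4 each, KOPT-K1 with CXCR4, CCR7, CCR9 and CXCR3 and PEER with CXCR4, CCR7, CCR8 and S1PR1. SKW-3 and TALL-1 had CXCR4 alone, and the remaining 11 lines had 2 or 3. CCR9 and S1PR1 were both high in 1 line, MOLT-4, and CCR9 and CXCR3 both in 1 line, KOPT-K1. With CCR9 high in 4 lines, S1PR1 in 5 and CXCR3 in 7, few shared lines would be found even without any relation. Whether these receptors exclude each other was not tested. All counts of high receptors rest on 1 culture of each line.

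Among the 21 pairs of receptors, Pearson's r over the 16 lines was above 0 in 11 and below 0 in 10, given here as a description of single arrays that share their RNA quality and scaling. The lowest r, -0.57 (rho -0.55), was between CXCR4 and CXCR3. The 4 lines of the lower CXCR4 tail, KOPT-K1, LOUCY, HSB-2 and DU528, were all among the 7 lines with high CXCR3, whereas ALL-SIL, JURKAT and SUP-T13 combined high CXCR3 with CXCR4 of 7497, 7218 and 6654. The highest r, 0.40, was shared by CXCR3 with CCR8 and CXCR4 with CCR9, each with rho of 0.56. The 3'/5' ratio of ACTB also went with several receptors over these lines. Its r was 0.59 with CCR9 and 0.47 with CXCR4, against -0.50 with CXCR3 and -0.60 with CCR8, and its part in these patterns was not tested except where an adjusted value is given.

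CCR9 was set against RAG1 and CD1E, genes of cortical thymocytes, because CCR9 belongs to the same stage of development. The pairs were chosen with earlier results of these data known, and the p-values do not account for that choice. RAG1, which cuts the DNA when T-cell receptor genes are assembled, had intensities of 3166 in PF-382, 851 in MOLT-4, 2653 in P12-ICHIKAWA and 562 in KOPT-K1, the 4 lines with high CCR9. It was 3415 in CCRF-CEM, 2302 in SKW-3, 881 in MOLT-16 and 256 in ALL-SIL, in which CCR9 was not high, and at most 130 in the other 8 lines. All 4 lines with high CCR9 therefore had high RAG1, and 4 further lines had high RAG1 without reaching the CCR9 limit. Over the 16 lines r was 0.67 (two-sided permutation p = 0.00505, adjusted p = 0.0400 over 11 pairs) and rho 0.71 (permutation p = 0.00262, adjusted p = 0.0288). Without PF-382 and MOLT-4, the lines farthest from the median of CCR9, r was 0.59.

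CD1E, a lipid-binding protein of the CD1 family found in cortical thymocytes, was 2007 in PF-382, 8796 in MOLT-4, 7890 in P12-ICHIKAWA and 7569 in KOPT-K1. It was also high in SKW-3 at 6315, JURKAT at 4718, CCRF-CEM at 3845, ALL-SIL at 872 and TALL-1 at 226, and at most 22.9 in the other 7 lines. In JURKAT, high CD1E stood beside CCR9 of 13.3. The r of CD1E with CCR9 was 0.65 (permutation p = 0.00727, adjusted p = 0.0400) and rho 0.61 (permutation p = 0.01295, adjusted p = 0.0712), and r was 0.62 without PF-382 and MOLT-4.

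Neither relation passed the threshold under all alternatives. Each partner left its widest gap between 9 lines above it and 7 below it, a split noticed after the data were seen. The sets differed, with TALL-1 below the gap for RAG1 only and MOLT-16 for CD1E only. Among the 9 lines above the gap of each partner, r with CCR9 was 0.53 for RAG1 and 0.27 for CD1E, over a narrower range and in few lines. In its own 7 lines below the gap each partner lay under the table median, at most 27.3 for RAG1 and 22.9 for CD1E. No relation could be read there. With the ACTB ratio taken out of both genes, r over the 16 lines was 0.49 for RAG1 and 0.44 for CD1E, both with an adjusted permutation p of 0.371. Among all 13307 genes tested with limma, the adjusted p was 0.282 for RAG1 and 0.297 for CD1E. Leaving out 1 line at a time took the adjusted p for RAG1 to between 0.0199 and 0.0986. It rose above 0.05, so that the call was lost, without ALL-SIL, DU528, HSB-2, KOPT-K1, LOUCY, MOLT-4, P12-ICHIKAWA, PF-382, SUP-T11 or SUP-T13. For CD1E it ran from 0.0139 to 0.0935 and stayed below 0.05 only without JURKAT, PEER or SKW-3.

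**Figure D3:**
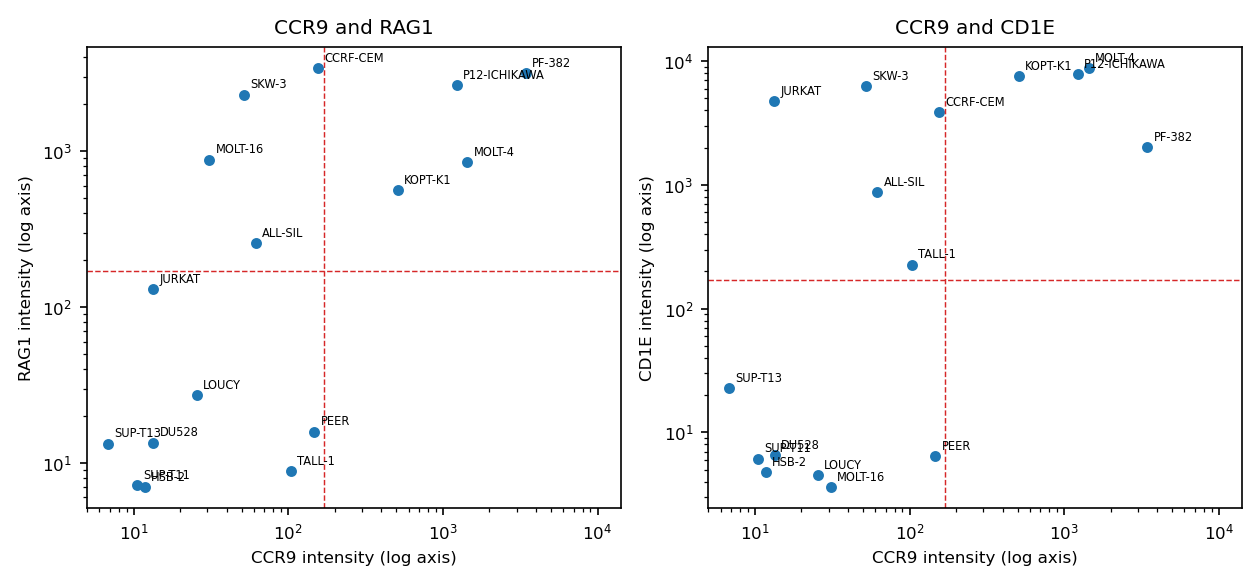
CCR9 intensity (x) against RAG1 (left, y) and CD1E (right, y) in the 16 T-ALL lines, on log axes, with 1 labelled point per line and dashed lines at the limit for a high call. PF-382, MOLT-4, P12-ICHIKAWA and KOPT-K1 were high for CCR9 and both partners, while JURKAT had CD1E of 4718 at a CCR9 of 13.3.

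The other 9 tested pairs did not pass the adjusted threshold of 0.05 for r or rho. CD69, a surface protein that removes S1PR1 from the membrane and marks activated or selected T cells, had an r of -0.54 with CXCR4 (permutation p = 0.0343, adjusted p = 0.126). Its level was 5464 in DU528, the line with least CXCR4, and r was -0.25 without DU528 and HSB-2. CD69 and S1PR1 had an r of 0.09 (permutation p = 0.744, adjusted p = 0.809).

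KLF2, a transcription factor needed for S1PR1 expression in mature T cells, ran from 9126 in SUP-T11 through a median of 272 to 9.74 in SKW-3. Its r was 0.46 with CCR7 (permutation p = 0.0736, adjusted p = 0.193) and 0.17 with S1PR1 (permutation p = 0.520, adjusted p = 0.636). SUP-T11 held the highest KLF2 and the highest CCR7, and without SUP-T11 and MOLT-4 the r with CCR7 was 0.10. MOLT-4 had S1PR1 of 187 with KLF2 of 15.7, and ALL-SIL had KLF2 of 2832 with S1PR1 of 46.3. FOXO1, which acts upstream of KLF2 in mature T cells, had an r of 0.44 with CCR7 (permutation p = 0.0876, adjusted p = 0.193), and 0.14 without SUP-T11 and MOLT-4.

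For DTX1, a target of the NOTCH1 signal that is active in most T-ALL, r with CCR7 was -0.38 (permutation p = 0.150, adjusted p = 0.266). S1PR1 and CCR7 had an r of 0.36 (permutation p = 0.169, adjusted p = 0.266). CXCR4 gave an r of -0.23 with RGS1 (permutation p = 0.408, adjusted p = 0.561), whose product shortens G protein signals. CXCR4 and CCR7 gave an r of 0.07 (permutation p = 0.809, adjusted p = 0.809) but -0.36 without DU528. TBX21, a transcription factor of effector cells, was high in HSB-2 alone, at 226, which was also the line with most CXCR3. No permutation test was made for that pair, and with CXCR3 the slope of TBX21 was 0.16 (SE 0.07, limma adjusted p = 0.384).

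Genes that followed each receptor were sought with limma across 13307 genes, with a slope giving the change of a gene in log2 units for each log2 unit of the receptor. With CXCR4, 51 genes were higher (0.383%) and 98 lower (0.736%), 149 in all (1.12%), at a Benjamini-Hochberg adjusted p below 0.05. DU528 weighed on this fit, and without it 7 genes passed, of which 2 were among the 149. The count was also 96 without CCRF-CEM, 93 without P12-ICHIKAWA and 97 without TALL-1, and 23 with the ACTB ratio in the model.

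Of the genes listed by role, 3 followed CXCR4, 1 each from lists of 17, 6 and 4 tested genes, and no gene of the other lists did. Over all genes tested the share was 1.12%. RGS19, one of the 17 genes tested from the list for signal shut-off and receptor removal, had a slope of 0.63 (SE 0.14, limma adjusted p = 0.0392). Its level was 5027 in TALL-1 and 318 in DU528. CCR10, 1 of the 6 other chemokine receptors tested and a receptor for skin and mucosal chemokines, had a slope of -0.74 (SE 0.16, limma adjusted p = 0.0367), with 270 in DU528 and at most 108 elsewhere. GNLY, 1 of the 4 NK-cell markers tested and a protein of cytotoxic granules, had a slope of -1.28 (SE 0.26, limma adjusted p = 0.0252), with 1777 in HSB-2 and 362 in DU528. GNLY was high in these 2 lines only and low in 13 of the 16. Without DU528 the slope was 0.37 for RGS19 (limma adjusted p = 0.636), -0.42 for CCR10 (limma adjusted p = 0.647) and -2.02 for GNLY (limma adjusted p = 0.119), so that of GNLY was larger than with all lines although the call was lost. With the ACTB ratio in the model the adjusted p was 0.201, 0.122 and 0.120. CCR10 also missed the threshold with a pseudocount of 1 (limma adjusted p = 0.0826) and with each array centred on its median (limma adjusted p = 0.0728). RGS19 and CCR10 each passed the threshold in 7 of the 16 fits that leave out 1 line. RGS19 lost it without ALL-SIL (0.0550), CCRF-CEM (0.0603), DU528, JURKAT (0.0541), LOUCY (0.0511), MOLT-4 (0.0578), P12-ICHIKAWA (0.0623), PF-382 (0.0607) or TALL-1 (0.0624). CCR10 lost it without CCRF-CEM (0.0583), DU528, JURKAT (0.0515), LOUCY (0.0517), MOLT-4 (0.0523), P12-ICHIKAWA (0.0600), PF-382 (0.0607), SKW-3 (0.0527) or TALL-1 (0.0551). None of the 20 tested G protein and migration genes, the 12 transcription factors or the 9 homing partners passed with CXCR4.

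The genes most like CXCR4 over the 16 lines shared its low value in DU528. PSRC1, a spindle protein, had r of 0.90 and rho of 0.59, ZNF580 r of 0.89 and rho of 0.64, and GCFC2 r of 0.89 and rho of 0.46. Each had a limma adjusted p of 0.00423 with all lines. The slope of PSRC1 was 0.56 with all lines and 0.46 without DU528 (limma adjusted p = 0.253), a smaller change than for the other genes. Without DU528 the slope was 0.35 for ZNF580 (limma adjusted p = 0.384) and 0.39 for GCFC2 (limma adjusted p = 0.374), against 0.68 and 0.83 with all lines. GCFC2 also missed the threshold with the probe set of highest SD (limma adjusted p = 0.0501). Each of the 3 was at its lowest in DU528, at 136, 30.1 and 22.9.

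With CXCR3, 1 of 13307 genes passed (0.00751%), PTPN7, a tyrosine phosphatase of blood cells that restrains MAP kinases. PTPN7 was 2505 in DU528, 2306 in SUP-T13, 2158 in LOUCY, 1960.5 in HSB-2, 1589 in KOPT-K1, 1271 in JURKAT and 1164 in ALL-SIL, the 7 lines with high CXCR3. In the other 9 lines it ran from 421 in SUP-T11 to 1536 in CCRF-CEM, so the ranges overlapped. Its slope was 0.35 (SE 0.05, limma adjusted p = 0.0414), with r and rho of 0.88. The adjusted p was 0.322 with the ACTB ratio in the model, 0.0842 after quantile normalization and 0.0686 with each array centred on its median. It ran from 0.00794 to 0.207 when 1 line was left out at a time and stayed below 0.05 in 6 of 16 such fits. It exceeded 0.05 without ALL-SIL, DU528, HSB-2, KOPT-K1, LOUCY, MOLT-4, P12-ICHIKAWA, PEER, SUP-T11 or SUP-T13.

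NKG7, a cytotoxic granule protein and NK-cell marker, was the next most like CXCR3 (r 0.85, rho 0.83), with a limma adjusted p of 0.0641. Its level was 4915 in SUP-T13, 3499 in HSB-2, 2099 in ALL-SIL, 2046 in LOUCY, 1173 in KOPT-K1, 549 in DU528 and 72.4 in JURKAT, the lines with high CXCR3. It was also high in CCRF-CEM at 322, P12-ICHIKAWA at 302 and TALL-1 at 224, where CXCR3 was not high. EEF2K, the kinase of a translation elongation factor, followed with r and rho of 0.83 and the same adjusted p. The NK-cell markers as a whole summed from 137 in MOLT-4 to 5378 in HSB-2, with NCAM1, KLRD1 and NCR1, named after their values were seen, high in no line. KLRF1, another NK-cell marker, was high only in SUP-T11 at 627 and TALL-1 at 300, where CXCR3 was low at 3.75 and 13.9. Its slope with CXCR3 was -0.23 (SE 0.15, limma adjusted p = 0.623). For GNLY the slope was 0.50 (limma adjusted p = 0.283) and for KLRD1 -0.02 (limma adjusted p = 0.896). The part of NK-cell genes in the CXCR3 pattern was not tested.

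**Figure D4:**
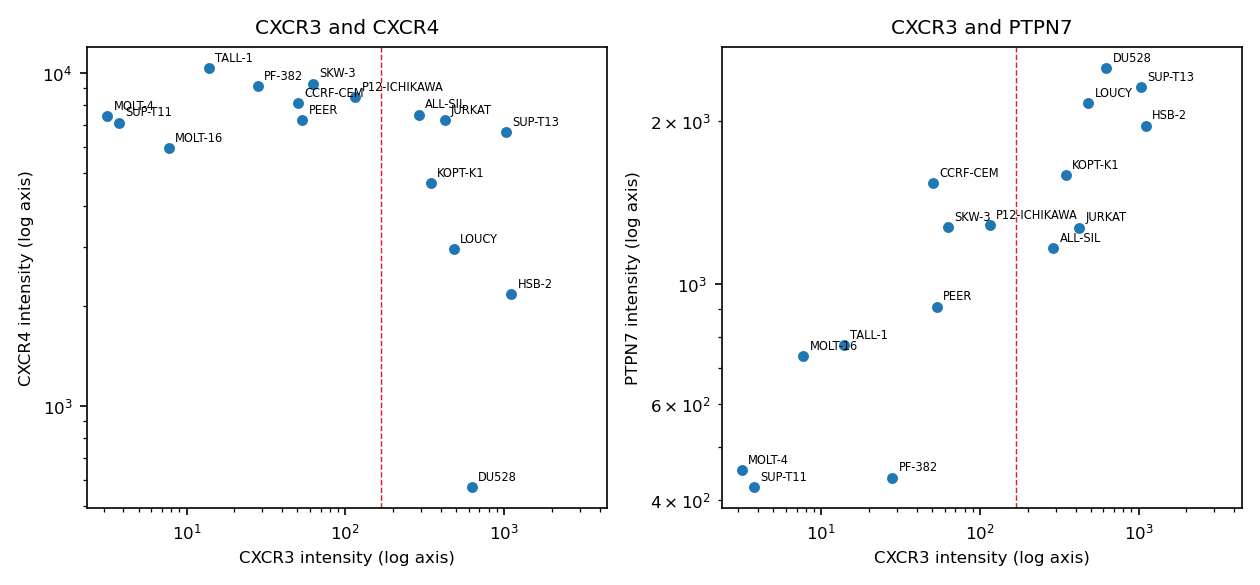
CXCR3 intensity (x) against CXCR4 (left, y) and PTPN7 (right, y) in the 16 T-ALL lines, on log axes, with 1 labelled point per line and a dashed line at the limit for high CXCR3. DU528, HSB-2, LOUCY and KOPT-K1 had the lowest CXCR4 and high CXCR3, and PTPN7 was lowest, from 421 to 454, in SUP-T11, PF-382 and MOLT-4.

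With CCR7, S1PR1 and CCR9, 0 of 13307 genes passed in limma (0%), and 0 passed without the trend and robust options. At an unadjusted p below 0.05, limma counted 915 genes for CCR7, 609 for S1PR1 and 1217 for CCR9, against 1502 for CXCR3 and 1870 for CXCR4. A share of 0.05 of the 13307 genes would fall below that limit if none followed a receptor. The S1PR1 count lay below that share, and no gene was called from these counts. The CCR9 fit was added after the data were seen. The 6 NOTCH1 genes had a median slope of 0.49 with CCR9 and the 13 thymocyte stage genes one of 0.30, against a median of -0.004 over all genes, and none of these list genes passed. With CXCR4 the medians of the same lists were 0.94 and 0.60, with CXCR3 -0.29 and -0.13, with CCR7 -0.41 and -0.15, and with S1PR1 -0.47 and -0.14, and none of their genes passed there. The lists had a median SD of 2.22 and 2.40, against 0.35 over all genes, so large slopes of either sign come more easily to them. For each receptor the sign was also that of its r with the ACTB ratio, which was -0.33 for CCR7 and -0.21 for S1PR1. The part of RNA quality in these medians was not tested.

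The genes most like CCR9 were TMEM132D (r 0.85, rho 0.69), MFAP4 (r 0.81, rho 0.83) and CR2 (r 0.80, rho 0.60). TMEM132D, a membrane protein, was 663 in MOLT-4, 662 in KOPT-K1, 491 in PF-382 and 422 in P12-ICHIKAWA, and at most 87.5 in the other 12 lines. These were the same 4 lines that had high CCR9, and their choice as the most alike of all genes makes this a description. MFAP4, a protein of the extracellular matrix, was 2596 in P12-ICHIKAWA but also 1220.0 in MOLT-16, where CCR9 was 30.9. Most like CCR7 were NDUFB7 (r 0.81, rho 0.78), LINGO3 (r 0.78, rho 0.76) and PSMD9 (r 0.77, rho 0.76). The levels of NDUFB7, a subunit of respiratory complex I, moved little, from 2945 in SUP-T11 to 1776 in TALL-1. Most like S1PR1 were ECHDC2 (r 0.83, rho 0.72), ZNHIT1 (r 0.77, rho 0.72) and LINC01224 (r 0.77, rho 0.66).

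Of the other S1P receptor genes, S1PR3 and S1PR4 were high in more lines than S1PR1, and S1PR2 and S1PR5 in fewer. Such counts also depend on how strongly each probe set binds, so they do not rank the genes by level. S1PR3, a receptor coupled to several G proteins, was high in 11 lines, with 2593 in SUP-T11, 2079 in SKW-3, 1901 in SUP-T13, 1375 in JURKAT and 1306 in KOPT-K1. It was low in LOUCY at 14.7, ALL-SIL at 10.2, HSB-2 at 5.86 and MOLT-16 at 2.66, so KOPT-K1 had high S1PR3 with S1PR1 of 18.2. S1PR4, a lymphocyte receptor, was high in 12 lines, with 970.1 in SUP-T11 and 810.5 in ALL-SIL, and low in JURKAT at 8.50 and MOLT-4 at 7.94. S1PR5, the receptor that NK cells use to leave tissues, was high in TALL-1 alone at 292, the line with least S1PR1 (7.74). S1PR2, named after its values were seen, was high in no line, from 108 in MOLT-16 to 47.1 in SUP-T13. In JURKAT and PF-382, S1PR3 was the only S1P receptor gene called high, at 1375 and 481.

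**Figure D5:**
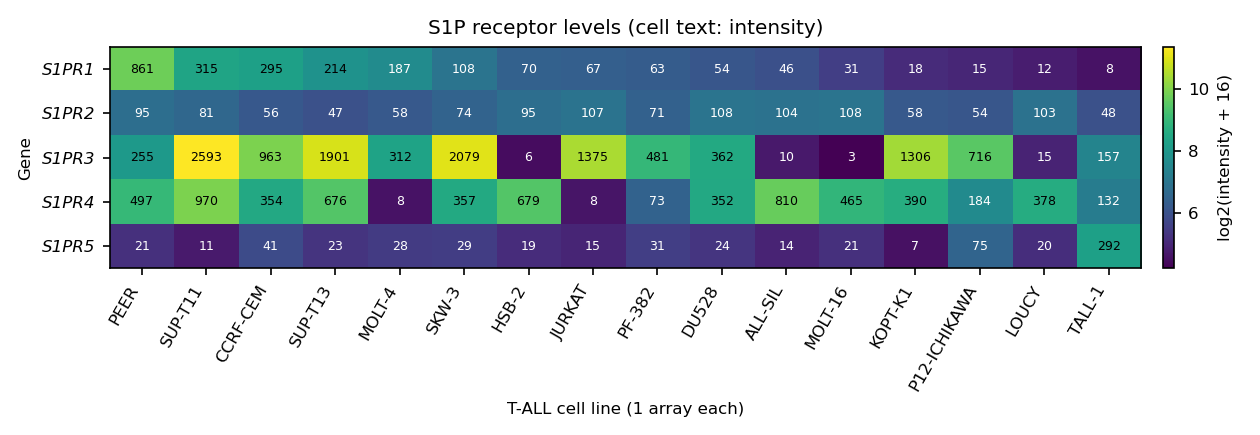
Intensity of the 5 S1P receptor genes (rows) in the 16 T-ALL lines (columns, 1 array each, ordered by S1PR1); colour is log2(intensity + 16) and the text in each cell is the intensity. S1PR1 ran from 861 in PEER to 7.74 in TALL-1, while S1PR3 and S1PR4 were high in 11 and 12 lines and S1PR5 in TALL-1 alone.

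Of 8 measured genes that make, carry or break down S1P, 4 were high in all lines and 3 in none, beside 32.3% and 45.0% of all genes. Those high in all lines included SGPL1, the lyase that destroys S1P, from 993 in MOLT-16 to 197 in SUP-T11, and SGPP1, an S1P phosphatase, from 1112 in SUP-T13 to 335 in P12-ICHIKAWA. PLPP1, a surface lipid phosphatase, was 7492 in DU528 and 429 in PEER. Within these genes 0 of 7 tested passed with S1PR1 in limma.

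The chemokines themselves stayed below the limit. All 10 measured ligands of the chemokine receptors above were high in no line, beside the 45.0% of genes of which this was true. CXCL12, the CXCR4 ligand, reached 60.2 in DU528, and CCL25, the CCR9 ligand, reached 65.2 in SUP-T13. The nearest to the limit was CCL1, the CCR8 ligand, at 154 in TALL-1. These ligands were named after their values were seen.

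Most genes that turn receptor binding into movement were high in every line. Of 20 G protein and migration genes measured, 17 were high in all lines, beside 32.3% of all genes. The 3 others were PIK3R5, a regulatory subunit of the PI3 kinase that chemokine receptors activate, PTK2B, a kinase of migrating leukocytes, and MYO1G, a lymphocyte myosin. PIK3R5 ran from 1383 in DU528 to 13.9 in MOLT-4, MYO1G from 3576 in DU528 to 138 in MOLT-16, and PTK2B from 560 in DU528 to 52.3 in MOLT-16. With CXCR3, PIK3R5 had a slope of 0.55 (SE 0.11, limma adjusted p = 0.0965), PTK2B one of 0.33 (SE 0.08, limma adjusted p = 0.125) and MYO1G one of 0.42 (SE 0.12, limma adjusted p = 0.194), none past the threshold.

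Many genes on the list for signal shut-off and receptor removal differed widely between lines. Of 18 measured, 10 had an SD above 1, against 12.5% of all genes. The list was not confined to genes with these roles. CNN3, at an SD of 2.47, and CTTN, at 1.36 and named after its values were seen, were among the 10. RGS1 and RGS2, which speed the shut-off of G proteins, ran from 650.03 in ALL-SIL to 2.12 in SKW-3 and from 2890 in SUP-T11 to 17.0 in MOLT-16. CNN3, an actin-binding calponin, was 1546 in KOPT-K1, 1096 in PF-382, 1071 in LOUCY and 642 in CCRF-CEM and 1.34 in DU528. It was also 15.3 in TALL-1, the line with most CXCR4. CXCR4 RNA was measured here, not the receptor on the surface.

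Other receptors of the family were scarce. Of 10 further chemokine receptor genes measured, 7 were high in no line, beside 45.0% of all genes. CCR1, a receptor of inflammatory chemokines, was 990.1 in SUP-T13, 657 in KOPT-K1 and 185 in DU528, 3 lines that also had high CXCR3, and at most 147 elsewhere. CX3CR1, the fractalkine receptor, was high in LOUCY alone at 197. Among the 5 atypical receptors, which bind chemokines without activating G proteins, ACKR3, which shares CXCL12 with CXCR4, was high in 6 lines. It was 458 in CCRF-CEM, 333 in KOPT-K1, 283 in SUP-T13, 223 in JURKAT, 176 in LOUCY and 175 in PEER, and 11.8 in SUP-T11. CCRL2 reached 595 in SUP-T13.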

How the data were processed

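Total RNA of 16 T-ALL cell lines was measured on 1 array each. The intensity values are those the authors deposited, on a linear scale; their software and normalization are not given in the sources examined, and no further normalization was applied. The table held 54675 probe sets with intensities from 0.6 to 24485, and 0 columns were left unused. No arrays were copies, since at most 0.48% of values were identical between 2 arrays. Of the probe sets, 41091 named 1 gene, 1801 several and 62 were controls, and 41042 matched a RefSeq symbol. For each gene the brightest probe set on average was used. Values were analysed as log2(intensity + 16), the 16 being a pseudocount that understates changes of dim genes. The number of arrays limits the precision.

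The members, lists and pairs were chosen with earlier results of these data known. For receptors high in at least 5 lines, limma 3.58.1 (trend and robust, R 4.3.3) tested genes whose 3rd highest value exceeded the table median, with Benjamini-Hochberg adjustment at 0.05. CCR9, high in 4, was added. Of 16 planned pairs 11 were tested with 100000 two-sided permutations, or all orders for 8 or fewer lines; in 3 a gene was high in fewer than 3 lines, and 2 were not analysed here. Named genes are the 7 receptors, genes of pairs, the 3 most alike genes of each receptor high in at least 3 lines, list genes called in a fit, and the 4 widest per list. PIK3R5, PTK2B and MYO1G are among the latter, and other names are stated as chosen later. The methods were tested on simulated data. Permutations and figures used matplotlib 3.10.9, scipy 1.17.1, pandas 2.3.3 and numpy 2.4.6 in Python 3.11.15. Alternatives were other pseudocounts, quantile normalization, array centring, other probe set choices, no filter, plain limma, the ACTB ratio, and leaving out each line.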

Additional observations from a re-analysis of the deposited data

How the results depend on the processing

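Each result was recomputed under other pseudocounts, scalings, probe set choices, filters and with each line left out. The count for CXCR4 was 149, and with 1 line left out it ran from 7 (without DU528) to 213 (without SUP-T13). It was 217 with all genes tested and 23 with the ACTB ratio as covariate. After quantile normalization 88 genes were higher and 94 lower with CXCR4, against 51 and 98. For CXCR3 the count of 1 became 2 with a pseudocount of 1, 17 with a pseudocount of 64, and 0 after quantile normalization, with arrays centred on their median, with the mean of all probe sets, with all genes tested or with the ACTB ratio. Leaving out a line gave from 0 to 27 genes, with 27 without JURKAT, 4 without MOLT-16, 3 without SUP-T11, 2 without SKW-3 or TALL-1, 1 without CCRF-CEM, MOLT-4 or PF-382, and 0 without any of the other 8. For CCR9 the count of 0 became 1 with a pseudocount of 64, and ran from 0 to 14, with 14 without JURKAT and 1 without MOLT-16 or SUP-T11. The counts of 0 for CCR7 and S1PR1 held in 25 of 25 settings each. The cause of these changes was not tested.

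The r of CCR9 with RAG1 was 0.63 (adjusted permutation p = 0.0507) with the mean of all probe sets and 0.49 with the ACTB ratio taken out, and ran from 0.60 to 0.74 with 1 line left out. With CD1E these values were 0.64 (adjusted permutation p = 0.0507), 0.44, and 0.60 to 0.75. The r of CXCR4 with CD69 passed with a pseudocount of 64, at -0.61 (adjusted permutation p = 0.0406). With 1 line left out, r ran from -0.36 (without DU528) to 0.17 for CXCR4 and CCR7, from -0.00544 (without MOLT-16) to 0.21 for S1PR1 and CD69, and from -0.00949 (without SUP-T11) to 0.27 for S1PR1 and KLF2. Calls of high lines for CXCR4 and CXCR3 kept within 1.5 times of their count in all 7 settings. Without repeated arrays the error of a single level is unknown, and dim genes near the table median are the least certain. No paired analysis was possible because all lines form 1 group.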

Other observations

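Of 9 lymphocyte homing partners measured, 3 were high in all 16 lines, beside 32.3% of all genes, and 6 had an SD above 1, beside 12.5% of all genes. The 4 with the widest range are described here. ITGA4, the integrin chain that pairs with the product of ITGB7 to bind the gut vessel ligand or with that of ITGB1 to bind VCAM1, was high in 15 of 16 lines, from 7278 in DU528 to 23.0 in SUP-T11. CD44, a hyaluronan receptor, was high in 13 lines, from 8144 in DU528 to 10.2 in JURKAT. PECAM1, an adhesion protein of leukocytes and endothelium, was high in 12 lines, from 4303 in DU528 to 26.7 in SUP-T11. ITGAL, the alpha chain of LFA-1, was high in 14 lines, from 6636 in ALL-SIL to 33.2 in MOLT-16. DU528, the line with least CXCR4, thus had the highest level of 3 of these genes, and SUP-T11, the line with most CCR7, had the lowest ITGA4 and PECAM1. These are single values per line, with no test.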
